A study of Mus musculus with 8 samples.

Results

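The genes that break down glucose to pyruvate and lactate, carry glucose and lactate across the cell membrane and respond to low oxygen were examined in mouse macrophages labelled as Baf60a knockout (KO). The group holds 36 genes, chosen by name for their place in these pathways, and it was found in 37 of the 55421 rows of the deposited table, since 2 gene identifiers carry the symbol Aldoa. All 36 genes passed the filter on low values (TPM over 1 in at least 4 libraries) and were among the 13933 genes tested.

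Glycolysis splits a hexose into a pair of trioses and turns these into pyruvate, and lactate dehydrogenase and the monocarboxylate transporters let the cell pass carbon and protons out as lactate. The transcription factor HIF-1, whose alpha subunit Hif1a encodes, is marked for destruction in the presence of oxygen by the prolyl hydroxylases of the Egln genes, and otherwise drives many genes of glycolysis, of lactate export and of adaptation to low oxygen. Macrophages are known to lean on glycolysis and HIF-1 when they are activated by bacterial products.

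RNA was sequenced from 4 Baf60a KO and 4 WT libraries of macrophages that were grown from mouse bone marrow, at day 7 of differentiation; the series title names C57 mice. Baf60a is the protein that Smarcd1 encodes, which belongs to the SWI/SNF (BAF) complexes that move nucleosomes. The sources used here do not give the deleted part of the gene, how and in which cells it was deleted, or any other allele; both groups went through the same differentiation, and no other agent is named. It is not stated whether each library stands for its own mouse or culture, and p-values therefore reflect library-to-library spread, which may be technical.

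Values are TPM, a transcript abundance per unit of length, set to 1 common total per library, so the read depth of a library is unknown. Smarcd1 (chromosome 15, 99702129 to 99713991, mm10) had 10.79, 10.3, 10.85 and 9.91 TPM in Baf60a KO libraries, against 16.25, 14.3, 14.8 and 14.01 TPM in WT libraries, and fell by 0.47 on the log2 scale (adjusted p = 0.00756). The ratio of its means was 0.705, so most of the transcript was still counted in Baf60a KO libraries, and whether it lacks the deleted part cannot be read from a gene-level value. Among the markers of the labelled cell type, Cd68 was at 1791 ± 35.7 and 1472 ± 141 TPM in Baf60a KO and WT libraries (SD, n = 4 each), and 0 of 10 macrophage markers were under 1 TPM in every library. The macrophage list summed to between 4279 and 4619.6 TPM in Baf60a KO libraries, against 5756 to 6687 TPM in WT libraries. Lyz2 alone set this order, at 1927 ± 110.1 TPM in Baf60a KO and 3993 ± 248 TPM in WT libraries, and the other 9 markers summed to between 2469.7 and 2572 TPM in Baf60a KO libraries, against 1956 to 2378 TPM in WT libraries. Markers of stromal cells were also present in both groups and summed to between 6977 and 7296 TPM in Baf60a KO libraries, against 5627 to 6155 TPM in WT libraries. The share of TPM given to processed pseudogenes was 7.48% to 8.38% in Baf60a KO libraries, against 6.78% and 7.62% in WT libraries 1 and 2. In WT libraries 3 and 4 it was 12.0% and 12.2%, so these stand apart in this share. The first principal component over the genes tested, with 30.0% of the variance, spread the WT libraries. WT libraries 1 to 4 lay at -26.0, -8.46, 20.1 and 22.2 on it, and the Baf60a KO libraries between -5.36 and 2.17.

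Of the 36 genes, 3 rose in Baf60a KO, 0 fell and 33 did not pass the test (limma, Benjamini-Hochberg adjusted p under 0.05 over all genes tested). Over all 13933 genes 4.4% were called higher, 1.21% lower and 5.61% in either direction, against 3 of 36 members. The genes that rose were Hk3, the hexokinase of myeloid cells, Aldoc, a minor aldolase, and Slc16a3, which encodes the lactate exporter MCT4. With an unadjusted p under 0.05 there were 17 of 36 members and 3108 of the 13933 genes tested, the background for such counts below. The median log2 fold change, Baf60a KO minus WT, was 0.07 over the members and 0.03 over all genes tested, and 25 members (69.4%) had a positive value, against 57.5% of all genes. All Baf60a KO libraries lay above all WT libraries for 7 members, where 11.9% of all genes tested did so, and below them for 3 members, where 3.96% did so; either held for 10 members and for 15.8% of all genes.

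The 3 calls were close to the threshold. With single libraries left out, 0 members were called higher without WT replicate 4, without KO replicate 3 or without KO replicate 4, and 1 was called without KO replicate 1 (Slc16a3) or KO replicate 2 (Aldoc). Summed over the 36 genes, the level was 14900.1 ± 202 TPM in Baf60a KO and 14227 ± 553 TPM in WT libraries (SD, n = 4 each), or 1.49% and 1.42% of a library.

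**Figure D1:**
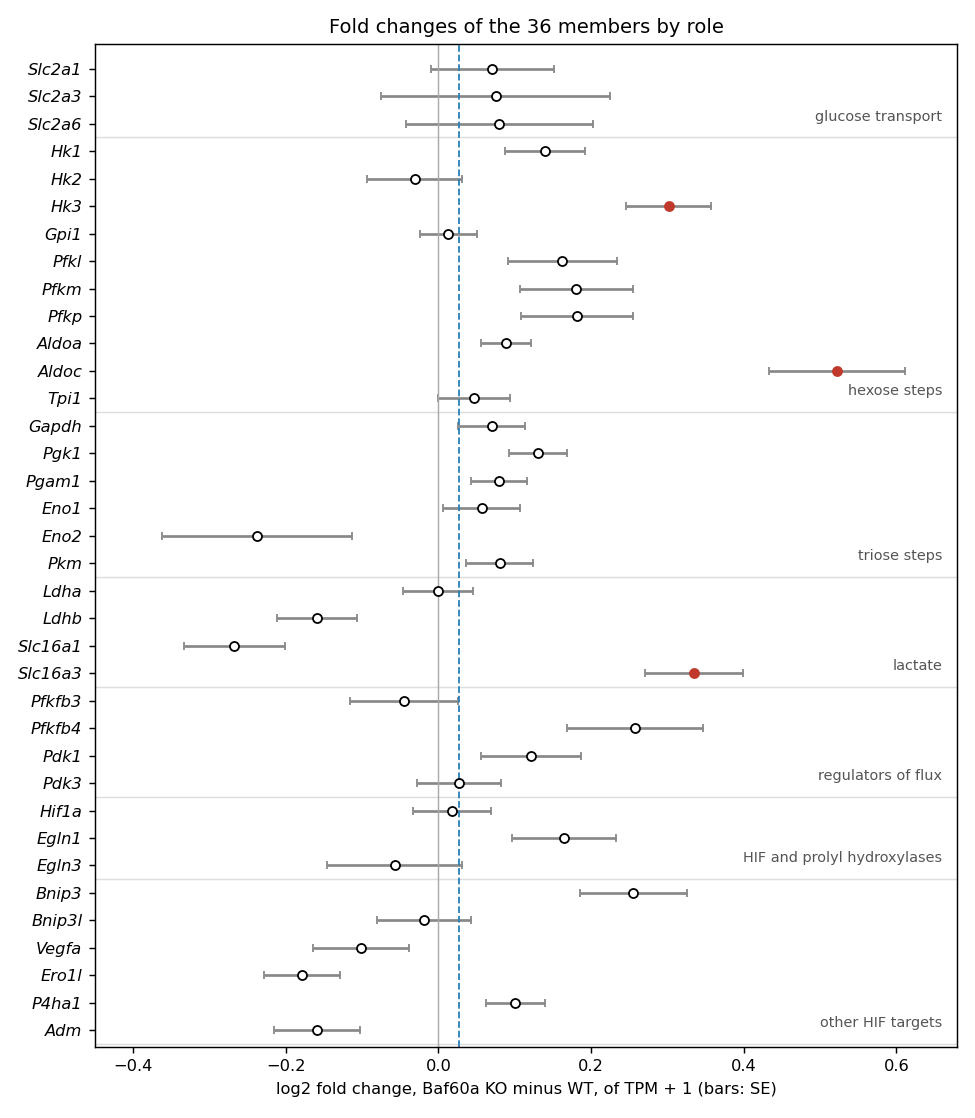
Log2 fold change of each of the 36 genes, Baf60a KO minus WT, on the log2(TPM + 1) scale, with the limma standard error as bars, grouped by role from glucose transport at the top to other HIF targets at the bottom; filled red points passed the test and the dashed line is the median of all genes tested, 0.03. Aldoc (0.52), Slc16a3 (0.33) and Hk3 (0.30) are the filled points, and Slc16a1 (-0.27), Eno2 (-0.24) and Ero1l (-0.18) lie farthest to the left.

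Glucose transporters carry glucose into the cell by facilitated diffusion. None of the 3 measured here passed the test by limma, with 0 at an unadjusted p under 0.05. Slc2a1, the widespread carrier GLUT1, had 73.1, 78.8, 69.0 and 76.2 TPM in Baf60a KO libraries, against 60.4, 78.8, 72.6 and 71.8 TPM in WT libraries. The groups overlapped, with WT replicate 1 the lowest of the 8 libraries (log2 fold change 0.07, SE 0.080, adjusted p = 0.682). Slc2a3, the high-affinity carrier GLUT3, had 6.27, 6.17, 5.23 and 6.98 TPM in Baf60a KO libraries, against 6.60, 6.67, 3.93 and 6.33 TPM in WT libraries. WT replicate 3 stood below the other WT libraries, and the log2 fold change was 0.07 with all libraries (SE 0.150) and -0.08 without that library. Slc2a6, a carrier of lysosomal membranes, was at 3.25 ± 0.539 and 3.02 ± 0.510 TPM in Baf60a KO and WT libraries (adjusted p = 0.772). Slc2a1 made up 88.8% of the TPM of the 3 transporters in each group.

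Among the 10 genes of the hexose steps, which take glucose to the triose phosphates, 2 rose, 0 fell and 8 did not pass. Over all genes tested, 4.4% were called higher. By limma 7 of the 10 had an unadjusted p under 0.05, against 3108 of the 13933 genes tested. The median log2 fold change of the 10 was 0.15, against 0.03 over all genes tested. Hexokinases trap glucose in the cell by phosphorylating it. Hk3 (chromosome 13, 55005985 to 55021385) had 208, 194, 193 and 204 TPM in Baf60a KO libraries, against 170.4, 169, 146 and 163 TPM in WT libraries. The lowest Baf60a KO library lay above the highest WT library, and Hk3 rose, with a mean 23.2% higher in Baf60a KO (log2 fold change 0.30, SE 0.056, adjusted p = 0.0250). Hk1, the widespread hexokinase of the outer mitochondrial membrane, was at 88.7 ± 1.98 and 80.6 ± 5.54 TPM in Baf60a KO and WT libraries (adjusted p = 0.160). Hk2, the isoenzyme that HIF-1 and insulin are known to induce, was at 26.0 ± 1.96 and 26.6 ± 1.09 TPM (adjusted p = 0.833). Hk3 was thus the most abundant hexokinase transcript in both groups and made up 63.5% ± 0.762 of the TPM of the 3 in Baf60a KO and 60.2% ± 0.894 in WT libraries, ranges that did not overlap. Together the 3 hexokinases summed to between 302 and 323 TPM in Baf60a KO libraries, against 246 to 285 TPM in WT libraries.

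The Hk3 call was kept in 3 of 8 fits that left out 1 library, where the largest adjusted p was 0.0800, without KO replicate 4, and in all 12 other alternatives. In the same libraries, 3 of 10 macrophage markers rose, among them Cd68, and Lyz2, the main lysozyme of macrophages, fell, and 7 of 11 stromal markers tested rose; their part in the result was not tested. In bulk RNA, fewer cells of a type and less RNA per cell cannot be told apart. Hk3 overlaps Unc5a, a gene on the opposite strand, over 34 bases, and Unc5a was at 0.82 TPM in Baf60a KO and 0.72 TPM in WT libraries. The 250 bases before the start of Hk3 are shown as those of 1 called member (chr13:55021386-55021635, minus strand, GRCm38.p6, RefSeq). A HIF core there is not particular to Hk3, since 31 of 34 members with a window held one. Among these was Aldoc, also called, with a core in each of its 2 windows (not shown). Capitals mark the core of the HIF response element, ACGTG or GCGTG on either strand, so that CACGT and CACGC are the same cores read on the other strand; here and below, a match describes the letters and is not a measured binding site.
Hk3 promoter: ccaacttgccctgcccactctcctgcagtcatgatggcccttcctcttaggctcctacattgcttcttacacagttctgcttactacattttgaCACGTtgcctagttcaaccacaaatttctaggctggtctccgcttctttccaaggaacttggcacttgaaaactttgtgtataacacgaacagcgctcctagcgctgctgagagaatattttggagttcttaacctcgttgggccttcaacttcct
This window held 1 core, at 156 bases before the start, and had a GC content of 47.2%, against a median of 52.4% over all 32851 mouse windows.

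The enzymes between hexokinase and the split of the hexose had mostly small positive differences. Phosphofructokinase is the committed step of glycolysis, and its 3 isoenzymes all had a log2 fold change between 0.16 and 0.18 that did not pass. Pfkl, the liver-type subunit, was at 75.8 ± 3.87 and 67.8 ± 6.24 TPM in Baf60a KO and WT libraries (adjusted p = 0.223). Pfkp, the platelet-type subunit, was at 66.1 ± 5.81 and 58.1 ± 4.06 TPM (adjusted p = 0.188), and Pfkm, the muscle-type subunit, at 15.8 ± 1.61 and 13.8 ± 0.382 TPM (adjusted p = 0.191). Their proportions were alike in the groups within the spread of libraries, with Pfkl at 48.1% ± 1.90 of the family TPM in Baf60a KO and 48.5% ± 1.73 in WT libraries. Gpi1, which converts glucose phosphate to fructose phosphate, was at 339.8 ± 10.5 and 337 ± 9.62 TPM (adjusted p = 0.895), and its log2 fold change of 0.01 was below 0 under each of the 3 other scalings of TPM.

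Aldolases cut fructose bisphosphate into the trioses. Aldoc (chromosome 11, 78322968 to 78327781), the isoenzyme best known from brain, had 5.20, 4.37, 5.25 and 5.12 TPM in Baf60a KO libraries, against 2.93, 3.35, 3.62 and 2.79 TPM in WT libraries. The groups did not overlap, and Aldoc rose with the largest fold change of the 36 genes (log2 fold change 0.52, SE 0.090, adjusted p = 0.0195). Its level was low beside that of Aldoa, the aldolase of most tissues, and it made up 0.250% ± 0.0221 of aldolase TPM in Baf60a KO and 0.169% ± 0.0217 in WT libraries. Aldoa (chromosome 7, 126795234 to 126800751) had 1993, 1999.8, 1953 and 2018 TPM in Baf60a KO libraries, against 1866, 1924, 1828 and 1875 TPM in WT libraries. These groups did not overlap either, although the mean was only 6.29% higher in Baf60a KO and the gene did not pass (log2 fold change 0.09, SE 0.033, adjusted p = 0.155). The row ENSMUSG00000114515, which also carries the name Aldoa, was at 2.12 ± 0.386 and 2.73 ± 0.667 TPM (adjusted p = 0.365). The Aldoc call was kept in 4 of 8 fits without 1 library, where the largest adjusted p was 0.0707, without KO replicate 4, and was lost with no filter on low values (0.0529) and with the replicate block (0.0674), a fit with the replicate number as a further term.

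Triose phosphate isomerase, which Tpi1 encodes, interconverts the 2 trioses. Tpi1 had 722, 789, 739 and 745 TPM in Baf60a KO libraries, against 693, 778, 726 and 704 TPM in WT libraries. The groups overlapped and the difference did not pass (log2 fold change 0.05, SE 0.047, adjusted p = 0.628).

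The 6 genes of the triose steps, which yield ATP and NADH on the way to pyruvate, included the most abundant transcripts of the 36. By limma 0 of the 6 were called and 1 of them had an unadjusted p under 0.05. Gapdh, which oxidises the triose and is widely used as a loading control, had 3641, 3742, 3784 and 3659.9 TPM in Baf60a KO libraries, against 3581, 3708, 3558 and 3293 TPM in WT libraries. WT replicate 4 was the lowest, and the groups overlapped (log2 fold change 0.07, SE 0.044, adjusted p = 0.400). Pgk1, the first step to yield ATP, had 1089, 1109, 1115 and 1080.0 TPM in Baf60a KO libraries, against 984, 1065, 989.7 and 978 TPM in WT libraries. The groups did not overlap, but the gap between the nearest libraries was narrow and the gene did not pass (log2 fold change 0.13, SE 0.038, adjusted p = 0.0849). Pkm, the pyruvate kinase of most cells, had 1547, 1614, 1599.6 and 1609 TPM in Baf60a KO libraries, against 1454, 1626, 1472 and 1478 TPM in WT libraries. WT replicate 2 was the highest of all 8, so the groups overlapped (log2 fold change 0.08, SE 0.044, adjusted p = 0.324).

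The mutase Pgam1 was at 859 ± 7.12 and 814 ± 30.5 TPM in Baf60a KO and WT libraries (adjusted p = 0.241). Eno1, the main enolase, was at 1207 ± 38.9 and 1162 ± 72.2 TPM (adjusted p = 0.573). Eno2, the enolase best known from neurons, was at 23.5 ± 1.77 and 28.2 ± 4.92 TPM (log2 fold change -0.24, adjusted p = 0.300). Eno2 depended on WT replicate 3, whose 20.99 TPM lay below the 29.3 to 32.0 TPM of the other WT libraries: without that library Eno2 was called lower (log2 fold change -0.37, adjusted p = 0.0326). Over the 16 enzymes of the hexose and triose steps, 14 (87.5%) had a positive log2 fold change, against 57.5% of all genes tested. Their median was 0.08, against 0.03 over all genes tested, and 2 of the 16 were called. All genes of a library share its scaling, so the 14 values are not separate results.

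Several of these genes have many near-identical copies in the genome, mostly processed pseudogenes, which short reads cannot always tell from the gene itself. By transcript alignment (at least 90% identity over at least 200 bases and 50% of the copy), 12 of the 36 genes had 241 copies, of which Gapdh had 189. The copies of Gapdh took 20.4% ± 1.45 of the TPM of gene plus copies in Baf60a KO and 22.5% ± 7.41 in WT libraries, where they ran between 14.2% and 30.4%. For Pgk1 the shares were 22.9% ± 1.54 and 24.3% ± 6.55 in Baf60a KO and WT libraries, for Pgam1 16.9% and 19.0%, for Tpi1 13.0% and 14.5% and for Pkm 8.37% and 9.59%. In each of the 8 genes plotted WT replicate 4 had the largest share and WT replicate 3 the next largest, and these are the libraries with the most TPM in processed pseudogenes overall. With the copies added to the gene, the log2 fold change was 0.03 for Gapdh, 0.10 for Pgk1 (adjusted p = 0.341) and 0.02 for Tpi1. Hk3, Aldoc, Slc16a3 and Slc16a1 had 0 such copies.

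**Figure D2:**
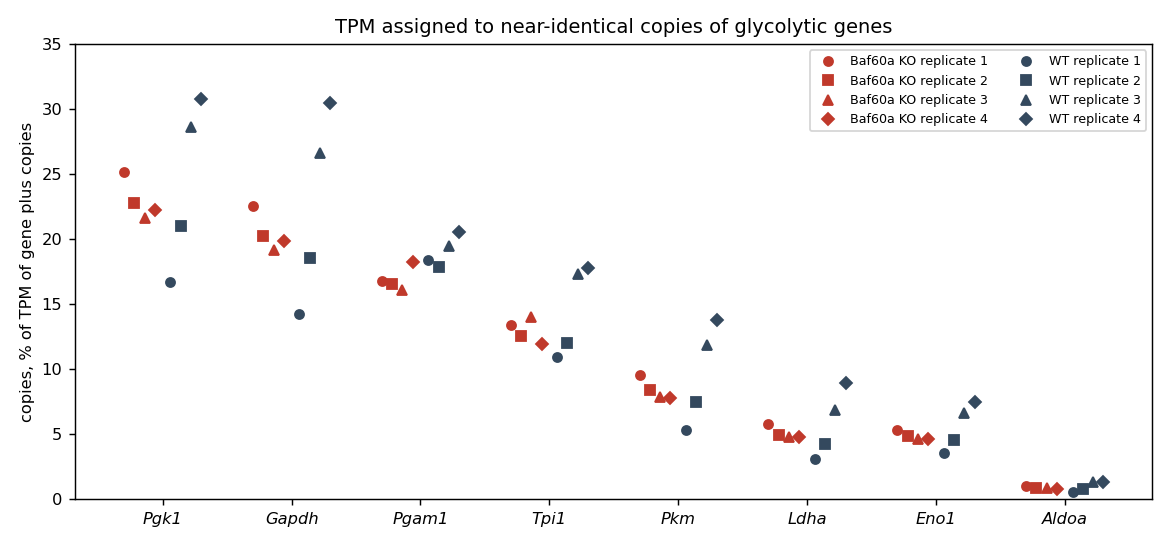
Share of TPM assigned to near-identical copies, as a percent of the TPM of gene plus copies, for the 8 glycolytic genes with the largest shares; red symbols are Baf60a KO libraries, left of the dark WT libraries for each gene, and the symbol shape gives the replicate number. WT replicates 3 and 4 lie highest for every gene shown, up to 30.8% for Pgk1, while WT replicate 1 is the lowest library for 7 of them.

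Lactate dehydrogenase and the monocarboxylate transporters form the last steps. Of the 4 genes, 1 rose, 0 fell and 3 did not pass. By limma 3 of the 4 had an unadjusted p under 0.05, against 3108 of the 13933 genes tested. Slc16a3 (chromosome 11, 120948480 to 120960868), which encodes MCT4, the exporter typical of glycolytic cells, had 127, 139, 138 and 141 TPM in Baf60a KO libraries, against 102, 116, 115 and 99.0 TPM in WT libraries. The groups did not overlap, and Slc16a3 rose, with a mean 26.1% higher in Baf60a KO (log2 fold change 0.33, SE 0.064, adjusted p = 0.0270). Slc16a1 (chromosome 3, 104638668 to 104658462), which encodes MCT1, a carrier that moves lactate in either direction, had 13.0, 14.0, 13.0 and 12.5 TPM in Baf60a KO libraries, against 16.4, 17.7, 14.7 and 15.4 TPM in WT libraries. Here the Baf60a KO libraries lay below all WT libraries, and the difference just missed the threshold (log2 fold change -0.27, SE 0.066, adjusted p = 0.0525). The transporters thus differed in opposite directions, and the ratio of Slc16a3 to Slc16a1 TPM, which a common scaling factor of a library cannot change, was 10.4 ± 0.693 in Baf60a KO and 6.76 ± 0.757 in WT libraries. The ratio ran between 9.76 and 11.3 in Baf60a KO libraries, against 6.21 to 7.88 in WT libraries. Since the groups did not overlap for either gene, in opposite directions, the ranges of the ratio could not overlap. The ratio is therefore no support beyond the values of the 2 genes.

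The Slc16a3 call was kept in 4 of 8 fits without 1 library (at most 0.0854 for adjusted p, without KO replicate 4) and was lost without WT replicates 3 and 4 together (0.0512), with no filter (0.0550) and with the replicate block (0.0581). Slc16a1 was called lower in 6 of 20 alternatives, among them each of the 3 other scalings of TPM (adjusted p between 0.0122 and 0.0292).

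The windows before the starts of both lactate carriers are shown because these genes differed in opposite directions (Slc16a3, chr11:120948817-120949066, plus strand; Slc16a1, chr3:104638414-104638663, plus strand; both GRCm38.p6, RefSeq), with HIF cores in capitals as for Hk3; CACGTG holds a core on each strand and counts as 2.
Slc16a3 promoter: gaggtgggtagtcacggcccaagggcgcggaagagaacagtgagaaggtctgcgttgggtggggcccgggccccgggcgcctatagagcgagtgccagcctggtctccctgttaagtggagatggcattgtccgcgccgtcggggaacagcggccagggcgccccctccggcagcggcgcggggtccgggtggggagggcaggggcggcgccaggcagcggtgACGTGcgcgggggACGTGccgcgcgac
Slc16a1 promoter: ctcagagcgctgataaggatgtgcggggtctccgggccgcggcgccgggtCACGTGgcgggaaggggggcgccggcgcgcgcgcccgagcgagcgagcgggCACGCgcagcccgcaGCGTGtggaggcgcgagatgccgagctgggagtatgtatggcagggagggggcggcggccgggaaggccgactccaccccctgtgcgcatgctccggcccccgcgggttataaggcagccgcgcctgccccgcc
The Slc16a3 window held 2 cores, the farther one at 27 bases before the start, and its last 14 bases lie in an exon of GENCODE M21. It precedes the RefSeq start, and the whole window lies inside the gene as GENCODE M21 draws it, past an earlier start. The Slc16a1 window held 4 cores, the farthest at 200 bases. Windows with at least 1 core were common, at 39 of 48 windows of members and 38.6% of all mouse windows. A part of the cores in either difference was not tested.

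Ldha, the main lactate dehydrogenase, had 1302, 1356, 1321 and 1334 TPM in Baf60a KO libraries, against 1280.0, 1444, 1319.6 and 1279 TPM in WT libraries. The groups overlapped throughout, and the percent difference of the means was -0.176% (adjusted p = 0.994). Ldhb, the subunit typical of heart, had 28.7, 27.4, 30.6 and 31.6 TPM in Baf60a KO libraries, against 32.8, 34.0, 32.9 and 32.6 TPM in WT libraries. All Baf60a KO libraries lay below all WT libraries, but the difference did not pass (log2 fold change -0.16, SE 0.052, adjusted p = 0.114). The ratio of Ldha to Ldhb was 45.1 ± 3.24 in Baf60a KO and 40.2 ± 1.59 in WT libraries, ranges that overlapped.

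**Figure D3:**
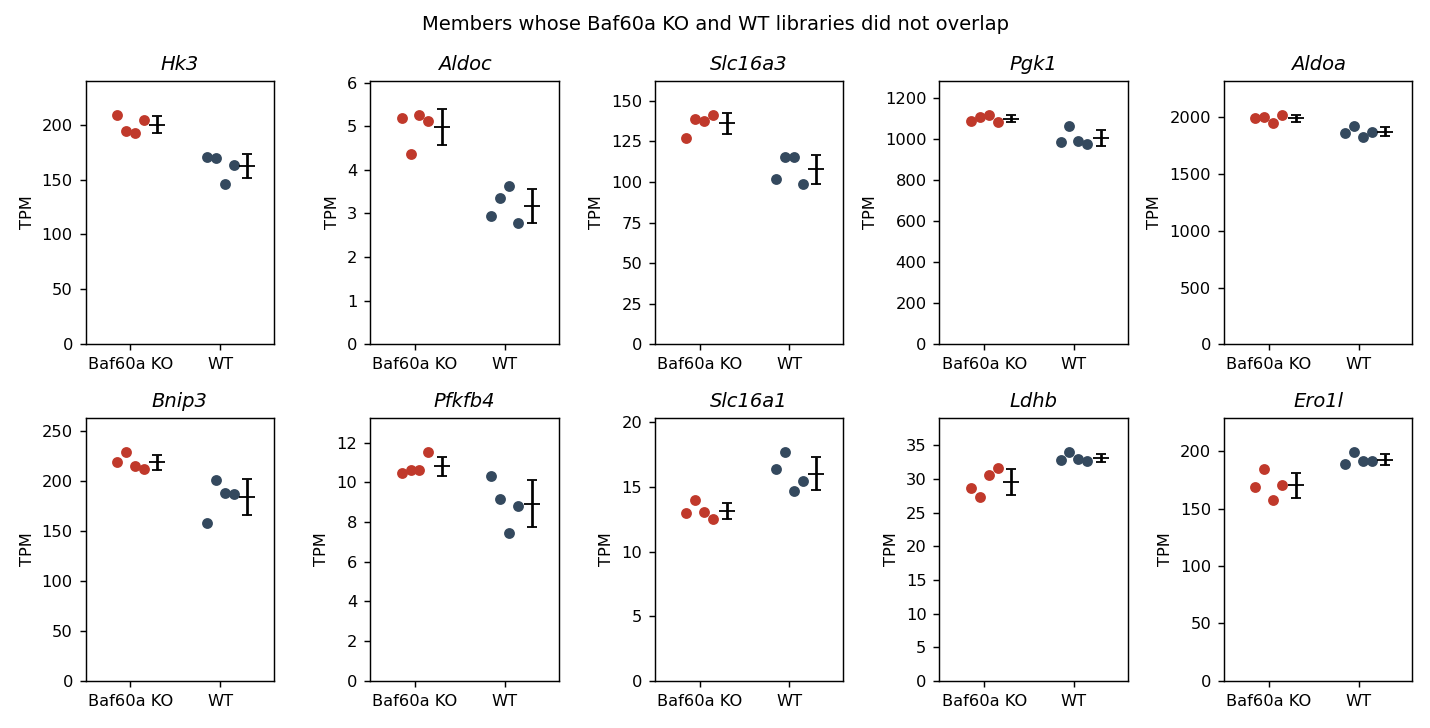
TPM in each library for the 10 genes whose Baf60a KO (red, left) and WT (dark, right) libraries did not overlap, on axes that start at 0; horizontal marks are group means and bars are 1 SD (n = 4 each). The first 7 panels, from Hk3 to Pfkfb4, have Baf60a KO libraries above WT, and Slc16a1, Ldhb and Ero1l have them below. In those 7 panels the mean is between 6.29% (Aldoa) and 57.1% (Aldoc) higher in Baf60a KO.

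Of the 4 genes that set how much carbon flows through glycolysis and into mitochondria, 0 were called by limma, with 1 at an unadjusted p under 0.05. Pfkfb3, which makes the activator of phosphofructokinase, had 42.9, 44.5, 39.6 and 43.4 TPM in Baf60a KO libraries, against 47.7, 44.9, 38.3 and 45.5 TPM in WT libraries. The groups overlapped (log2 fold change -0.05, SE 0.071, adjusted p = 0.776). Pfkfb4, a related bifunctional enzyme, had 10.5, 10.6, 10.6 and 11.5 TPM in Baf60a KO libraries, against 10.3, 9.17, 7.43 and 8.78 TPM in WT libraries. The groups did not overlap, by a narrow margin at WT replicate 1 (log2 fold change 0.26, SE 0.089, adjusted p = 0.131). Pfkfb4 made up 20.3% ± 0.961 of the TPM of the pair in Baf60a KO and 16.8% ± 0.747 in WT libraries, while the sum of the pair was 53.4 ± 2.25 and 53.0 ± 5.17 TPM. Pdk1, a kinase that switches off pyruvate dehydrogenase, had 37.6, 39.9, 42.5 and 39.5 TPM in Baf60a KO libraries, against 34.0, 38.7, 39.8 and 34.1 TPM in WT libraries. The groups overlapped (log2 fold change 0.12, SE 0.066, adjusted p = 0.319), and the related kinase Pdk3 was at 24.6 ± 1.53 and 24.1 ± 0.850 TPM (adjusted p = 0.842).

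The transcript of the HIF-1 alpha subunit differed by less than its standard error. Hif1a had 85.05, 84.1, 88.8 and 84.6 TPM in Baf60a KO libraries, against 89.8, 89.1, 79.2 and 80.7 TPM in WT libraries. The WT libraries lay on both sides of the Baf60a KO libraries (log2 fold change 0.02, SE 0.051, adjusted p = 0.892). HIF-1 alpha is controlled mainly as a protein, which these libraries do not measure. Egln1, the main prolyl hydroxylase, had 36.5, 40.0, 36.7 and 38.3 TPM in Baf60a KO libraries, against 30.2, 37.0, 32.5 and 35.5 TPM in WT libraries. The highest WT library lay within the range of the Baf60a KO libraries (log2 fold change 0.16, SE 0.068, adjusted p = 0.195). Egln3, a hydroxylase that HIF itself induces, was at 10.8 ± 0.705 and 11.3 ± 1.43 TPM (adjusted p = 0.774).

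The 6 other HIF targets among the members act outside glycolysis, and 0 of them were called by limma. Of the 6, 4 had an unadjusted p under 0.05, against 3108 of the 13933 genes tested. The median log2 fold change of the 6 was -0.06, and 2 were above 0 and 4 below. Bnip3, a receptor for the removal of mitochondria, had 219, 229, 215 and 212 TPM in Baf60a KO libraries, against 158, 201, 188 and 187 TPM in WT libraries. All Baf60a KO libraries lay above all WT libraries, with WT replicate 1 the lowest, and the gene did not pass (log2 fold change 0.26, SE 0.070, adjusted p = 0.0706). Its relative Bnip3l had 208, 221, 204 and 220.0 TPM in Baf60a KO libraries, against 224, 209, 196 and 238 TPM in WT libraries. For Bnip3l the groups overlapped (log2 fold change -0.02, SE 0.062, adjusted p = 0.908). Ero1l, which oxidises disulfide isomerase in the endoplasmic reticulum, had 168, 185, 158 and 170.3 TPM in Baf60a KO libraries, against 189, 199, 191 and 191 TPM in WT libraries. These Baf60a KO libraries lay below all WT libraries (log2 fold change -0.18, SE 0.050, adjusted p = 0.0751), and Ero1l was called lower under median-of-ratios scaling (0.0378) and with TPM rescaled over protein-coding genes (0.0285).

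Vegfa, the vascular growth factor, had 196, 211, 199 and 215 TPM in Baf60a KO libraries, against 239.8, 232, 200.4 and 211 TPM in WT libraries. WT replicates 1 and 2 were the highest and the groups overlapped (log2 fold change -0.10, SE 0.063, adjusted p = 0.388). P4ha1, a prolyl hydroxylase of collagen, was at 132 ± 3.07 and 123 ± 4.27 TPM in Baf60a KO and WT libraries (adjusted p = 0.167). Adm, the vasodilator adrenomedullin, was at 73.3 ± 4.41 and 81.9 ± 4.31 TPM (adjusted p = 0.140). The window before the start of Bnip3 (chr7:138909507-138909756, minus strand, GRCm38.p6, RefSeq) is shown because it held as many HIF cores as any window of a member, again in capitals.
Bnip3 promoter: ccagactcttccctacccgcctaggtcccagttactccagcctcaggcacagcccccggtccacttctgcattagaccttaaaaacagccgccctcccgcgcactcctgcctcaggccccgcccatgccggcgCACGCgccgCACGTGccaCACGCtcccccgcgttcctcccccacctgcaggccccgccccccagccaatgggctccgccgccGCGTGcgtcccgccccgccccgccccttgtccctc
It held 5 cores, the farthest at 117 bases before the start, and 13 of its bases lie in an exon of GENCODE M21. Over the members, 34 of 36 matched a RefSeq window (Slc2a3 and Bnip3l did not), and 39 of their 48 windows (81.2%) held at least 1 core, against 38.6% of all 32851 windows of the same 250 bases. The windows of the members were also richer in G and C, with a median of 61% against 52.4%, and each core holds 3 or 4 such bases. Some members had several windows, up to 4 for Pfkm. A part of base composition in the share of windows with a core was not tested.

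Genes of the same pathways outside the 36 were counted for comparison, from lists of 85 genes of which 70 were tested. Of these, 3 rose, 2 fell and 65 did not pass, where 4.4% and 1.21% of all genes tested were called in these directions. Of 7 other glycolytic isoenzymes tested, 0 were called by limma, with 0 at an unadjusted p under 0.05, and Adpgk, an ADP-dependent glucokinase, was at 30.2 ± 0.329 and 30.5 ± 2.08 TPM in Baf60a KO and WT libraries. Among 12 genes of pyruvate entry into mitochondria, Pdhb, a subunit of pyruvate dehydrogenase, fell to 101 ± 1.89 TPM in Baf60a KO, against 115 ± 4.77 TPM in WT libraries (log2 fold change -0.18, adjusted p = 0.0409). The other 11 did not pass, including the pyruvate carrier subunit Mpc1 at 178 ± 8.51 and 167 ± 13.7 TPM. Of 8 glycogen genes, 0 passed by limma and 2 had an unadjusted p under 0.05, and the glycogenin Gyg was at 257 ± 5.52 and 254 ± 18.6 TPM.

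Among 8 other hexose and lactate carriers and their partners, Emb rose. Emb encodes embigin, a membrane partner of monocarboxylate transporters, and had 37.0, 36.02, 39.6 and 35.1 TPM in Baf60a KO libraries, against 30.9, 30.2, 30.7 and 30.4 TPM in WT libraries (log2 fold change 0.27, adjusted p = 0.0210). Its more abundant relative Bsg, basigin, the usual partner of MCT1 and MCT4, was at 890.4 ± 27.0 and 819.6 ± 37.5 TPM and did not pass (adjusted p = 0.145). Of 9 other genes of the hypoxia pathway, 0 passed by limma and 3 had an unadjusted p under 0.05, and Elob, a subunit of the ligase that degrades HIF-1 alpha, was at 563 ± 15.99 and 526 ± 16.3 TPM. The 26 other HIF targets tested held 2 rises, 1 fall and 23 that did not pass, with a median log2 fold change of 0.12. By limma 12 of the 26 had an unadjusted p under 0.05, against 3108 of the 13933 genes tested. Cxcr4, a chemokine receptor, rose to 35.1 ± 1.08 TPM in Baf60a KO, against 27.1 ± 2.02 TPM in WT libraries (log2 fold change 0.37, adjusted p = 0.0138). Ppfia4, a liprin, rose to 1.73 ± 0.118 TPM in Baf60a KO, against 0.930 ± 0.145 TPM in WT libraries (0.50, adjusted p = 0.0241). Its WT libraries, at 0.79, 1.06, 1.05 and 0.82 TPM, lay near the filter, which the 4 Baf60a KO libraries alone were enough to pass. With TPM over 1 required in all libraries, Ppfia4 was not tested. Tfrc, the transferrin receptor, fell to 28.4 ± 1.48 TPM in Baf60a KO, against 36.1 ± 2.72 TPM in WT libraries (-0.33, adjusted p = 0.0276). With 1 library left out, the call of Cxcr4 was kept in 7 of 8 fits, of Emb in 4, of Ppfia4 in 3, of Tfrc in 2 and of Pdhb in 1.

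Markers of other cell types were read in the same libraries. Of 11 stromal markers tested, 7 rose and 0 fell, and 1 more, Lum, was under 1 TPM in every library. Of 6 endothelial markers tested, 3 rose, and their list summed to between 59.4 and 75.5 TPM in Baf60a KO libraries, against 43.1 to 53.9 TPM in WT libraries; Tek was under 1 TPM. Cxcr4, Vegfa, Aldoc and Slc16a3 are not confined to macrophages, so these marker values stand beside the results of these genes. A part of other cell types in those results was not tested. Of the tested markers of neutrophils (5), of the erythroid and megakaryocyte lines (4) and of lymphocytes (1), 0 passed by limma, with 1, 1 and 0 at an unadjusted p under 0.05. Their lists summed to 150.4 to 242 TPM for neutrophils in Baf60a KO libraries, against 199 to 293 TPM in WT libraries, and to 2.20 to 2.80 TPM for lymphocytes, against 1.77 to 3.52 TPM in WT libraries. The erythroid and megakaryocyte list summed to 1009.8 to 1418 TPM in Baf60a KO libraries, against 1408 to 2197 TPM in WT libraries, nearly all of it from the platelet factor Pf4. Of 3 dendritic and osteoclast markers tested, 1 rose, Acp5, and the list summed to 52.1 to 56.3 TPM in Baf60a KO libraries, against 44.2 to 53.0 TPM in WT libraries, with Calcr at 0.

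**Figure D4:**
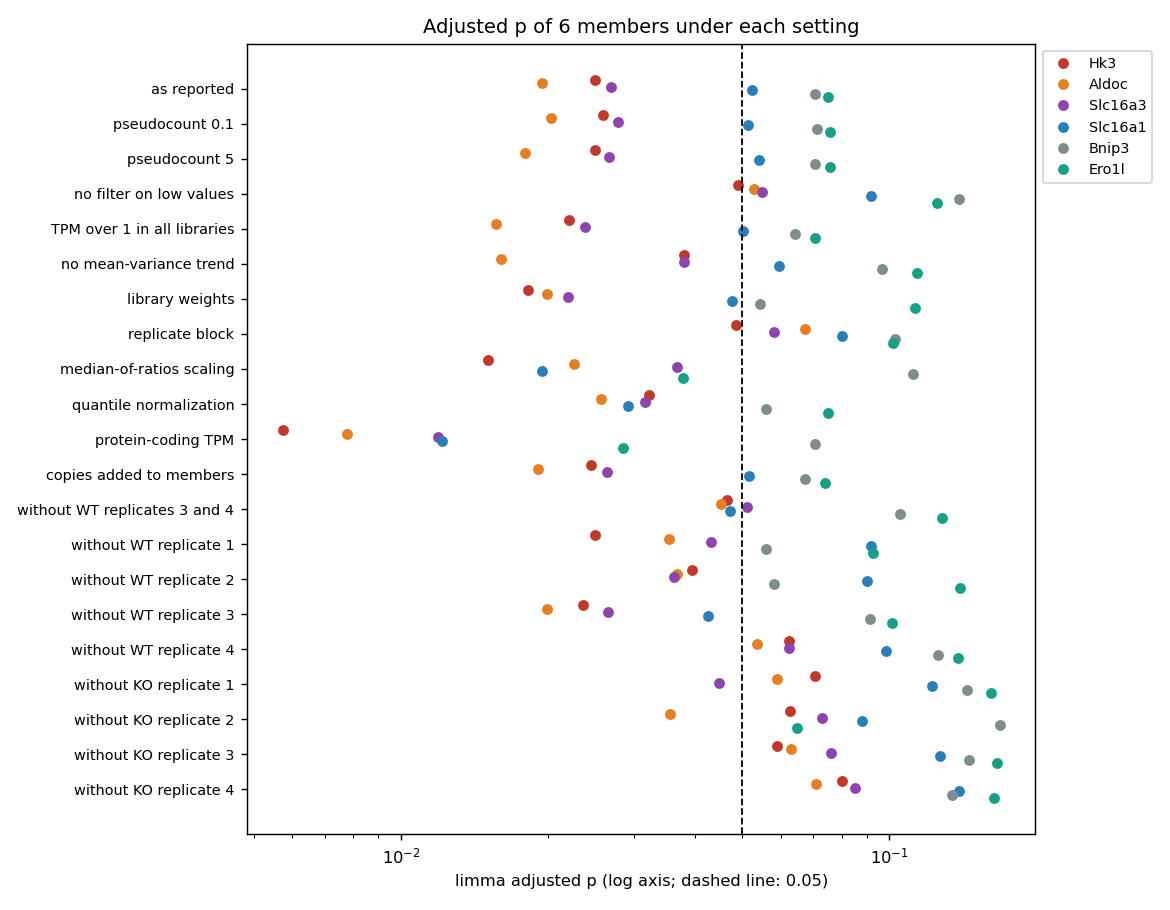
Limma adjusted p, on a log axis, of the 3 called genes (Hk3, Aldoc, Slc16a3) and of Slc16a1, Bnip3 and Ero1l, as reported (top) and under each of the 20 alternative settings; the dashed line is the threshold of 0.05. The called genes lie between 0.0195 and 0.0270 as reported and cross the line in most fits that leave out a KO library, and Slc16a1, at 0.0525 as reported, lies to the left of it in 6 settings.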

How the data were processed

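Groups, day and replicate numbers came from the sample titles and characteristics. Per the labels' protocols, total RNA was made into libraries with the NEBNext Ultra RNA kit and sequenced as paired reads; the sources used here do not say whether strand was kept. The tools were bcl2fastq and Salmon 1.2.0, and the build mm10, per the submitters' processing notes. The deposited table holds the authors' TPM per gene and library, scaled within a library, so that a change in abundant transcripts moves all others; it keeps no read depth, and no counting interval can be given. Of 55421 identifiers, 55240 matched a symbol in GENCODE M21 (same assembly as mm10) and 181 did not.

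Genes over 1 TPM in 4 or more libraries entered the test, on log2(TPM + 1), a scale that understates changes of low genes, by limma (version 3.58.1, R 4.3.3; variance trend by mean level, no term besides the group; Benjamini-Hochberg adjustment over 13933 genes), and called at adjusted p under 0.05. The fit was also run on simulated data with independent noise for each gene and library. That simulation held no differences shared by the genes of a library, so it does not show how the fit handles them. The members, the other lists and the alternatives were chosen with earlier results of these data known. Values in every library are given for called members, the 2 most abundant of each role, and members whose groups did not overlap; from the other lists, called genes and otherwise the most abundant are named, and some of these are not reported here. Near-identical copies were found with BLAST 2.17.0 on GENCODE M21 transcripts. Promoter windows are RefSeq's (GRCm38.p6). The 20 alternatives changed the pseudocount (0.1 or 5), the filter, the variance model, library weights, the scaling, the treatment of copies or the replicate block, or left out libraries.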

Additional observations from a re-analysis of the deposited data

Results flagged for a closer look

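In groups of 4 libraries, a library was marked when its gap to the nearest other library, as a part of the range of the group, exceeded Dixon's critical value, a rule that chance meets in about 1 of 20 groups. It was met in 6 of 72 groups (36 genes in both groups). Aldoc, a called gene, had 4.37 TPM in Baf60a KO replicate 2, below the 5.12 to 5.25 TPM of the other Baf60a KO libraries but above every WT library. Pfkfb4 had 11.52 TPM in Baf60a KO replicate 4, above the 10.47 to 10.62 TPM of the others. WT replicate 2 was high for 3 glycolytic genes: Pgk1 at 1064.78 TPM, above 977.53 to 989.69 TPM in the other WT libraries, Pkm at 1626.26 TPM, above 1453.61 to 1477.74 TPM, and Gpi1 at 351.08 TPM, above 331.15 to 333.51 TPM. Slc2a3 had 3.93 TPM in WT replicate 3, below the 6.33 to 6.67 TPM of the other WT libraries. WT replicate 2 was the highest of all 8 libraries for 10 of the 36 genes, and WT replicate 3 the lowest for 11 and WT replicate 1 for 10.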

How the results depend on the processing

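Of 720 member values under the 20 alternatives, 667 kept direction and side of the threshold, 18 lost and 11 gained a call, and 24 changed sign; 26 of 36 members never changed sign. Members called higher numbered 3 as reported, 1 with no filter on low values and 1 with the replicate block (Hk3 in both), and 0 to 3 with 1 library left out. Members called lower numbered 0 as reported, 1 with library weights, 2 under median-of-ratios scaling, 1 under quantile normalization, 4 with protein-coding TPM (Adm, Ero1l, Ldhb, Slc16a1), 1 without WT replicates 3 and 4, and 0 to 2 with 1 library left out. Over all genes, 613 were called higher and 169 lower as reported. These counts were 292 and 72 with no filter, 146 and 63 with the replicate block, 516 and 404 under median-of-ratios scaling, 440 and 254 under quantile normalization, 842 and 484 with protein-coding TPM, 201 and 171 without WT replicates 3 and 4, and 120 to 532 and 36 to 235 with 1 library left out. The lowest counts, 120 and 36, came without KO replicate 4, and the counts also fell by more than 1.5 times without KO replicates 1 (188 and 40), 2 (167 and 50) and 3 (166 and 46) and without WT replicate 2 (384 and 63) or 4 (178 and 51). With no filter 27510 genes were tested; the cause of the other shifts was not tested.

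The genes that changed sign had small differences. Without WT replicates 3 and 4 the log2 fold change was -0.098 for Slc2a3, -0.034 for Slc2a6, -0.0058 for Gpi1 and -0.062 for Hif1a. Gpi1 was at -0.024 under median-of-ratios scaling, -0.0078 under quantile normalization and -0.013 with protein-coding TPM. Hif1a was at -0.019, -0.0030 and -0.0077 under these scalings, and Pdk3 at -0.0094 under the first. With 1 library left out the ranges were -0.0035 to 0.12 for Slc2a1, -0.078 to 0.14 for Slc2a3, -0.0018 to 0.15 for Slc2a6, -0.059 to 0.021 for Hk2, -0.0022 to 0.033 for Gpi1, -0.019 to 0.039 for Ldha, -0.013 to 0.046 for Hif1a, -0.12 to 0.015 for Egln3 and -0.064 to 0.027 for Bnip3l.

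The replicate numbers were not taken to pair the libraries, since the deviations of same-numbered libraries correlated at -0.113, 0.0124, 0.0079 and -0.0156. With TPM alone, count models could not be run, and the depth behind low genes such as Aldoc is unknown.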
